A study of Mus musculus with 4 samples.

Results

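Veph1, Ptx3, Ly6g6e, Cisd3 and Nmnat1 are 5 of the 22770 genes in a table of RNA levels from mouse cerebral cortex, and each was much lower in cortex of Pax6 mutants than of wild types. They were chosen by name because of that difference and because fragments could have been assigned to the wrong gene at some of their loci, so the genotype difference of these 5 is given as a description, without a test. The mutants carried the small eye allele of Pax6 on both chromosomes (sey/sey), in every cell of the body, and the wild types were littermates. All embryos were at embryonic day 16.5 on a mixed background (C57BL/6J, 129S6, CD1), and there were 2 libraries per genotype. Nothing in the labels says whether a library held 1 embryo or several, so p-values measure only the spread between these libraries. Between the wild types that spread may be technical. The mutant libraries differ in sex, as given below, and so held different embryos. Levels are in FPKM, the fragments of a gene scaled to the length of its exons and to the number of fragments mapped in the library.

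Veph1 codes for a protein with a pleckstrin homology domain and is named for its expression in the ventricular zone, where cortical progenitors divide. In human cells VEPH1 binds the TGF-beta receptor TGFBR1, and its fly counterpart, melted, binds Tsc1 and Foxo. Ptx3 codes for a long pentraxin, a secreted protein of innate immunity and of extracellular matrix. Ly6g6e codes for a small cell-surface protein of the Ly-6/uPAR family in the major histocompatibility region. Cisd3 codes for a mitochondrial protein that holds iron-sulfur clusters in CDGSH domains, and Nmnat1 for the nuclear enzyme that makes NAD from nicotinamide mononucleotide. Pax6 itself is a transcription factor of cortical progenitors, with a paired domain and a homeodomain.

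The sequences around the starts of these genes show how differently they are built, and how close some lie to another gene. A start window runs from 250 bases before to 50 bases after an annotated start, 4 of the 5 genes had one in RefSeq (GRCm38.p6), and the windows are read on the strand of the gene. Capitals mark the letters CCAAT, and in Ptx3 the letters TAATTA, on either strand.
Veph1, chr3:66296788-66297087, minus strand: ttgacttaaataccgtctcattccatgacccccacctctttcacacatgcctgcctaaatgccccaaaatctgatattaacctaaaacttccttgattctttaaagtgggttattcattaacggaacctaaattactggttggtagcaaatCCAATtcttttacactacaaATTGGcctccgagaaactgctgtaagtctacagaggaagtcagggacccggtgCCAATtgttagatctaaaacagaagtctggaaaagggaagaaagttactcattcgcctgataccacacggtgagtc
Ptx3, chr3:66219637-66219936, plus strand: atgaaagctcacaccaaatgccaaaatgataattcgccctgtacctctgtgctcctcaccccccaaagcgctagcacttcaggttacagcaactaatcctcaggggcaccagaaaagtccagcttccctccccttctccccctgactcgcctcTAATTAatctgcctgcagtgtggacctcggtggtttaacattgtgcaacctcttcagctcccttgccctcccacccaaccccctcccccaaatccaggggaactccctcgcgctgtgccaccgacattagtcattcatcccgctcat
Cisd3, chr11:97685683-97685982, plus strand: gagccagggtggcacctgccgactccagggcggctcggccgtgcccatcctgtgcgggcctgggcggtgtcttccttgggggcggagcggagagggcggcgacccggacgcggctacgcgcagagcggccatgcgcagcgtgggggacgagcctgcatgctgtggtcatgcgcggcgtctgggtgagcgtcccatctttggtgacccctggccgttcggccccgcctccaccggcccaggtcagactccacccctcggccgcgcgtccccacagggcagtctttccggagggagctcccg
Rbp7, chr4:149454919-149455218, minus strand: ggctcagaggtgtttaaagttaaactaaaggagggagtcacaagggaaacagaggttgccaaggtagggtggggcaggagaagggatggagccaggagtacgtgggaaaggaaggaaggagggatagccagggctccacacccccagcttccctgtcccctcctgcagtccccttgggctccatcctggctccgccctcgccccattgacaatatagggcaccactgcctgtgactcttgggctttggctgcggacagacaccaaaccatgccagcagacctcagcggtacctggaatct
The stretch between Nmnat1 and the gene Lzic, chr4:149485193-149485228, minus strand, is shown because both genes start there in opposite directions: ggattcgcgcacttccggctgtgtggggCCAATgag

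Cisd3 has a pair of start windows. The one printed was 73.7% G or C with 33 CG pairs, and the other, which begins within the end of Mllt6, was 44.7% with 8 pairs. The first Nmnat1 window was 69.0% with 28 pairs, against a median of 52.7% and 7 pairs over all 32851 windows. The Veph1 window was 41.7% G or C with 6 CG pairs, below the lower quartile of 45.7% for G or C content. Both strands were searched for TTCACGC (a core of the Pax6 paired domain motif), TAATTA (a homeodomain core), CAGATG (an E-box of proneural factors), CCAAT (found ahead of many gene starts) and the TATA box TATAAA. The paired domain core TTCACGC was in none of the 7 windows of these genes and Rbp7, and in 1.26% of all windows. TAATTA stood in the Ptx3 window and in 5.29% of all windows. CCAAT stood at 3 places in the Veph1 window and at 1 in each Nmnat1 window, and 37.4% of all windows had it. Of the 36 bases printed for Nmnat1 and Lzic, 26 lie between the annotated genes and 10 belong to Nmnat1. The CCAAT marked there lies in those 10. It is at position 11 from the first Nmnat1 start of RefSeq, thus past it, and at -28 from the second. CAGATG was in none of the 7 windows and in 17.2% of all, and for the TATA box TATAAA these were also none and 13.6%. These letter matches are descriptions and draw nothing about binding.

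**Figure D1:**
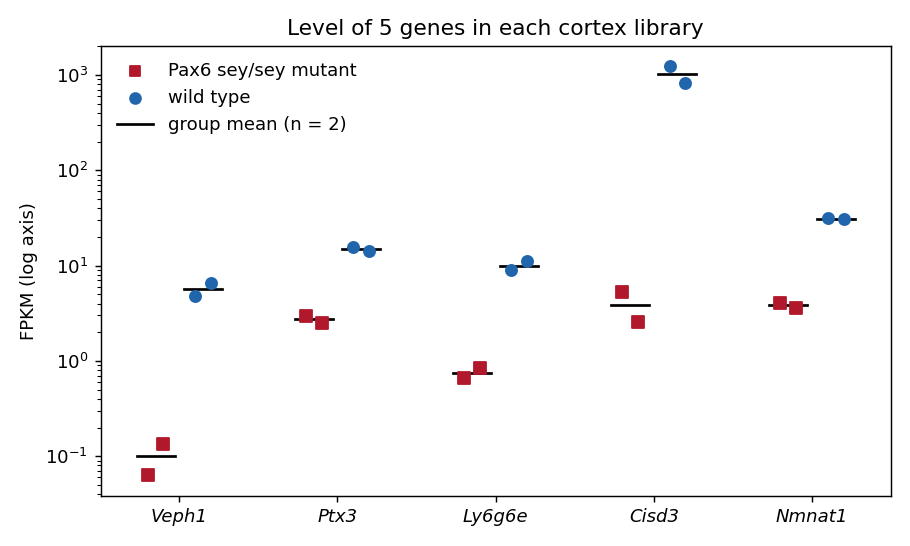
FPKM on a log axis of the 5 genes in each of the 4 libraries, with Pax6 mutants as red squares left of wild types as blue circles and the mean of each pair drawn in black. In all 5 genes both mutants lie below both wild types, with Cisd3 at 5.24 and 2.58 FPKM in mutants against 1233 and 826 in wild types.

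All 5 genes had both mutant libraries below both wild-type libraries, as 25.8% of all 15399 tested genes had; groups that did not overlap in either direction made up 51.6%. Since this contrast chose the 5, nothing is read from the count. Differences are on the scale log2(FPKM + 0.5), mutant minus wild type, where the added 0.5 makes the change of a weakly expressed gene look smaller than it is. In 15399 genes with at least 0.5 FPKM in 2 libraries, limma called 1.46% lower and 2.02% higher in mutants (3.48% in all, adjusted p under 0.05), and the median difference was 0.00. All 5 genes passed this filter, Veph1 through the wild types alone. In whole tissue, fewer cells of a type and less RNA per cell cannot be told apart.

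Veph1 (ENSMUSG00000027831) was 0.0633 and 0.136 FPKM in mutants, against 4.81 and 6.51 FPKM in wild types. Its group means were 0.0995 ± 0.0512 in mutants and 5.66 ± 1.20 in wild types (SD, n = 2 each), a 56.9-fold lower mutant mean and a log2 difference of -3.35 (SE 0.25). The value of 1 fragment can be read from low genes with a single transcript, and it came to 0.121 and 0.0872 FPKM times kilobases in mutants and 0.104 and 0.130 in wild types, so that mutant library 2 was the deepest and wild-type library 2 the shallowest. With all annotated exon bases of Veph1 counted (7086), its levels stood for about 3.71 and 11.03 fragments in mutants and 327 and 354 in wild types. The mutant level therefore rests on few fragments, while the groups lie far apart on this scale.

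Ptx3 (ENSMUSG00000027832) was 2.96 and 2.53 FPKM in mutants, against 15.8 and 14.2 FPKM in wild types. The mutant mean was 18.3% of the wild-type mean and the log2 difference was -2.26 (SE 0.14), the smallest of the 5. This gene was reduced rather than near absent, with about 65.8 and 77.7 fragments in mutants and 405 and 293 in wild types. Ordered by how far both mutants lay below both wild types on the log2 scale, between the nearest libraries, it came at rank 18 of 22770 rows. A distance of 2 or more was seen in 19 rows with mutants lower and in 29 rows with mutants higher. Of the 19, 7 shared a locus with another row, as 3 of the 5 genes do and as 41.1% of all rows do.

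Veph1 and Ptx3 are listed under a single locus, chr3:66053558-66296837 in GRCm38, which is the span of Veph1 on the minus strand. Ptx3 (chr3:66219910-66225805) lies on the plus strand within intron 4 of the long Veph1 transcript. It is 4332 and 18672 bases from the nearest exons of that transcript, and the genes share 0 annotated exon bases. The labels do not state that strand was used in counting. FPKM times kilobases of exon, which is proportional to fragments, summed over the locus to 8.39 and 7.74 in mutants and 76.4 and 84.3 in wild types. The mutant sum was 0.1003 of the wild-type sum. Both rows of this locus were chosen for being lower in mutants, so a low sum follows from the choice.

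Ly6g6e (ENSMUSG00000013766, chr17:35076902-35078804, plus strand) was 0.665 and 0.834 FPKM in mutants, against 8.92 and 11.1 FPKM in wild types. Its means were 0.750 ± 0.119 in mutants and 10.004 ± 1.54 in wild types (SD, n = 2 each), a 13.3-fold lower mutant mean, with a log2 difference of -3.07 (SE 0.20). These levels stood for about 7.02 and 12.2 fragments in mutants and 109 and 108 in wild types. The groups were wide apart, and both mutant values rest on few fragments.

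Ly6g6e shares its locus (chr17:35071443-35078804) with Ly6g6d, another Ly-6 gene, annotated on the minus strand, and 229 of the 1273 exon bases of Ly6g6e are also exon of Ly6g6d. Ly6g6d was 0.406 and 0.323 FPKM in mutants, against 1.20 and 0.724 FPKM in wild types, and was not called (log2 difference -0.74, limma adjusted p = 0.259). Both mutants were below both wild types in Ly6g6d as well. Exon-weighted FPKM over the locus was 1.32 and 1.44 in mutants and 12.8 and 14.97 in wild types. Fragments from the shared exon bases cannot be given to one gene without strand, so the values of both genes are uncertain there. On either side, Ly6g6c, Ly6g6f and Mpig6b had values between 0 and 0.524 FPKM. Past Ly6g6f, Abhd16a was 26.3 and 22.8 FPKM in mutants, against 26.5 and 36.6 FPKM in wild types. Its mutants were both below its wild types, and it was not called (log2 difference -0.34, limma adjusted p = 0.359). Exon-weighted FPKM over the 5 neighbours, Ly6g6d included, was 85.4 and 74.1 in mutants and 87.4 and 120 in wild types.

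Cisd3 (ENSMUSG00000078695, chr11:97685826-97688621, plus strand) was 5.24 and 2.58 FPKM in mutants, against 1233 and 826 FPKM in wild types. The means were 3.91 ± 1.88 in mutants and 1029 ± 288 in wild types (SD, n = 2 each), a 263-fold lower mutant mean and a log2 difference of -7.91 (SE 0.34). No gene of the table had a wider distance between its groups in this direction. By level, Cisd3 stood at rank 10046 and 11667 of 22770 rows in mutants and at rank 35 and 68 in wild types. Libraries of the same genotype differed too, by 0.90 between mutants and 0.58 between wild types on the log2 scale.

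What the Cisd3 level stands for depends on length, since 4 Cisd3 transcripts of 119 to 737 bases are annotated. Over all 833 exon bases the levels equal about 36.2 and 24.7 fragments in mutants and 9844 and 5279 in wild types. Over the shortest transcript, a noncoding one of 119 bases, they equal about 5.17 and 3.52 fragments in mutants and 1406 and 754 in wild types. The FPKM column does not say which transcript carries the level, nor which length the authors' annotation gave it. Both sets of numbers take FPKM as scaled to the annotated length. The value of 1 fragment came from genes of 1 to 8 kb, longer than any Cisd3 transcript. The number of fragments behind the Cisd3 level is therefore not known.

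Cisd3 has its locus to itself, but it lies 362 bases past the end of Mllt6, a transcription cofactor gene, and close to the end of Pcgf2, a Polycomb gene on the other strand. Mllt6 was 21.4 and 21.6 FPKM in mutants, against 18.6 and 20.0 FPKM in wild types (log2 difference 0.15, limma adjusted p = 0.397). Pcgf2 was 64.6 and 70.2 FPKM in mutants, against 60.5 and 67.0 FPKM in wild types (0.08, limma adjusted p = 0.653). Summed over Mllt6, Pcgf2, Psmb3 and Gm11613, exon-weighted FPKM was 641 and 662 in mutants and 610 and 647 in wild types. Cisd3 alone was 4.36 and 2.15 in mutants and 1027 and 688 in wild types on that scale. The totals of the neighbours overlapped between genotypes. Their mutant mean was 23.2 higher, and for Cisd3 the mutant minus wild-type difference was -854. The Cisd3 figure takes all its exon bases as length, though the transcript that carries the level is not known. The 2 figures therefore cannot be set against each other as fragments. Whether fragments passed between these genes was not tested.

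Very large differences between single libraries were mostly found in genes with a very short transcript, within a genotype as well as between genotypes. Genes whose shortest annotated transcript is under 300 bases made up 6.17% of the table. A difference of 5 or more on the log2(FPKM + 0.5) scale was seen in 26 to 30 genes for each mutant and wild-type pair, in 34 genes between the mutants and in 24 between the wild types. Short-transcript genes were 76.7% to 96.2% of those in the mutant and wild-type pairs, 76.5% between the mutants and 87.5% between the wild types. Of the 5 genes only Cisd3 belongs to this class. The shortest transcripts of Nmnat1, Ly6g6e, Ptx3 and Veph1 have 393, 464, 1186 and 1302 bases. Whether the short transcript has a part in the Cisd3 difference was not tested.

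**Figure D2:**
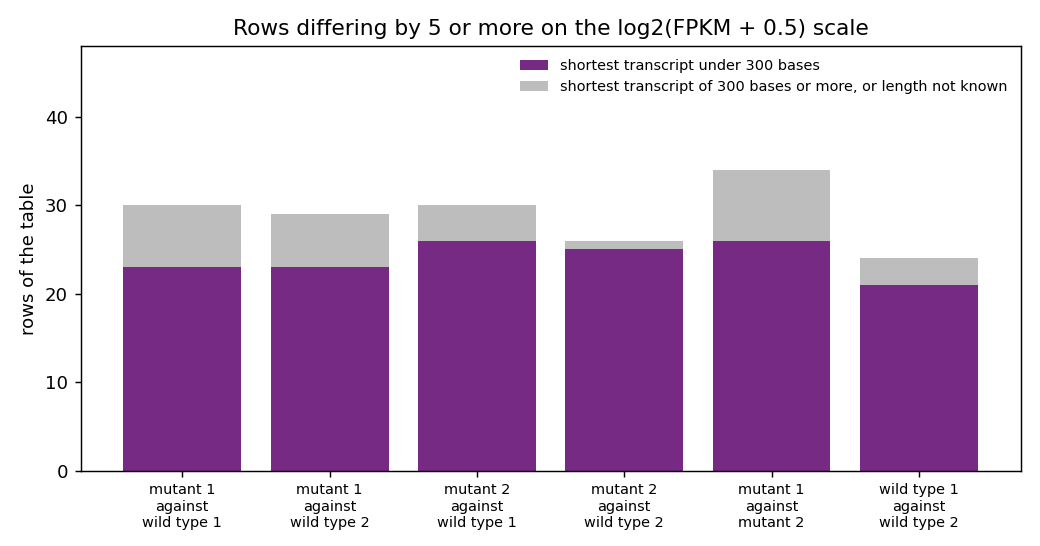
Number of table rows that differ by 5 or more on the log2(FPKM + 0.5) scale between each pair of libraries, with rows whose shortest annotated transcript is under 300 bases in purple and the other rows in grey. The pair of mutants has 34 such rows and the pair of wild types 24, against 26 to 30 in the pairs across genotypes, and purple is the larger part of every bar.

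Of genes whose shortest transcript is no longer than that of Cisd3, with at least 0.5 FPKM in a library, 14.3% of 56 differed by 3 or more (8-fold on this scale) between the mutants and 3.57% between the wild types. In 3 of the 56 (5.36%) all libraries of one genotype were at least that far from all of the other. Cisd3, chosen for its difference, is one of them, so this share is not one of genes as far apart as Cisd3. Its own distance between the nearest libraries was 7.17. At 5 or more it was the only row of the table with mutants lower, and 4 rows had mutants higher. Among 15125 genes whose shortest transcript has 300 bases or more, 0.145% differed by 3 or more between the mutants. Between the wild types 0.0793% did, and between the groups 0.0397%. Veph1 is among the 6 genes in the last count, at a distance of 3.06 between its nearest libraries. Ly6g6e (2.82), Nmnat1 (2.80) and Ptx3 (2.09) are not.

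Nmnat1 (ENSMUSG00000028992, chr4:149467572-149485202, minus strand) was 4.02 and 3.62 FPKM in mutants, against 31.4 and 31.0 FPKM in wild types. The means were 3.82 ± 0.281 in mutants and 31.2 ± 0.237 in wild types (SD, n = 2 each), an 8.17-fold lower mutant mean with a log2 difference of -2.88 (SE 0.11). This gene had the closest replicates of the 5, with 0.13 between mutants and 0.02 between wild types on the log2 scale. Over its 3037 exon bases it had about 101 and 126 fragments in mutants and 913 and 723 in wild types. Over its shortest transcript these come to about 13.1 and 16.3 in mutants and 118 and 93.6 in wild types.

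The start of Nmnat1 lies 26 bases from the start of Lzic, which runs the other way, in the stretch printed above. Lzic was 32.2 and 21.3 FPKM in mutants, against 26.1 and 24.7 FPKM in wild types, and the groups overlapped (log2 difference 0.05, limma adjusted p = 0.926). A gene within Nmnat1 on the other strand, Tmem274, is annotated with no exon base in common and has no row in the table. On the far side, 12593 bases away, lies Rbp7, which codes for a cellular retinol-binding protein. Rbp7 was listed at 0 in both mutants, against 8.82 and 7.22 FPKM in wild types, and was called lower (limma adjusted p = 0.00466). A value of exactly 0 can be a failed estimate, so no fold is given, and Rbp7 passed the filter through the wild types alone. Past Rbp7, Ube4b was 39.4 and 43.5 FPKM in mutants, against 47.5 and 46.9 FPKM in wild types (log2 difference -0.19, limma adjusted p = 0.273).

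The exon-weighted sum over the 7 neighbours of Nmnat1, Rbp7 included, was 421 and 429 in mutants and 486 and 474 in wild types, while Nmnat1 alone was 12.2 and 11.002 in mutants and 95.3 and 94.2 in wild types. Among these neighbours Ube4bos3 was 3.29 and 3.67 FPKM in mutants, against 1.96 and 1.91 FPKM in wild types, with both mutants above both wild types, and was not called (log2 difference 0.71, limma adjusted p = 0.119).

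**Figure D3:**
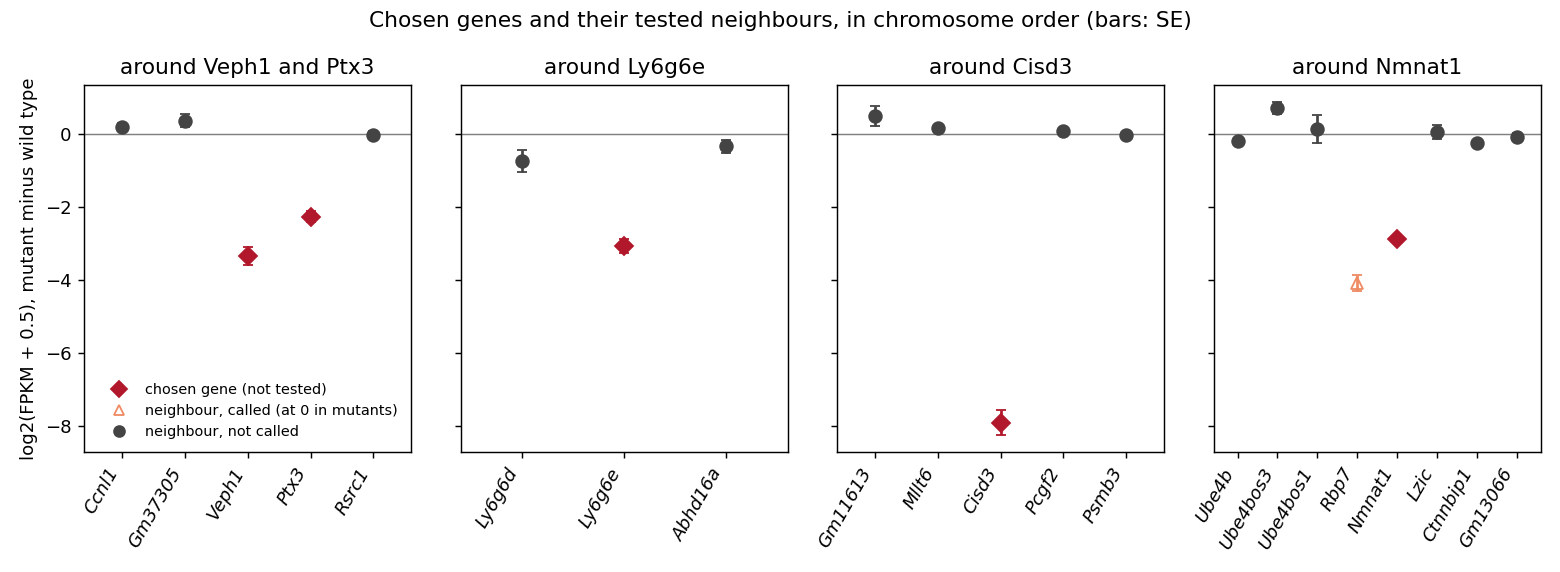
Difference of log2(FPKM + 0.5), mutant minus wild type, for the 5 chosen genes (red diamonds) and their tested neighbours in chromosome order, with bars for the SE from limma. Only Rbp7 (open triangle, listed at 0 in both mutants, so that its fitted value depends on the pseudocount) was called among the neighbours, and the others lie within 0.74 of 0.

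Across the 4 loci, 21 neighbours were found by position and 16 of them passed the filter. Rbp7 was called lower and 0 were called higher by limma, with 2 lower and 1 higher of the 16 at an unadjusted p under 0.05, a threshold that 2997 of all 15399 genes passed. The neighbours' median difference was 0.01, and the largest of those not called was 0.74 in size, in Ly6g6d. In 6 of the 16 both mutants were below both wild types, in 5 both were above, and in 5 the groups overlapped, where over all tested genes 25.8% had both mutants below and 51.6% did not overlap. The call of Rbp7 could not be tested without either wild-type library, since it then failed the filter. Around Veph1, the locus that holds Ccnl1 and Gm37305 ends 91521 bases away on one side, and the one that holds Shox2 and Rsrc1 begins 674889 bases away on the other. Rsrc1 was 12.01 and 12.6 FPKM in mutants, against 12.6 and 12.3 FPKM in wild types (log2 difference -0.02, limma adjusted p = 0.930). Both mutants were above both wild types in Ccnl1 (0.20, limma adjusted p = 0.355) and Gm37305 (0.36, limma adjusted p = 0.356). Gm37078 and Shox2 were under the filter. Exon-weighted FPKM over these 5 neighbours was 457 and 511 in mutants and 434 and 448 in wild types. Whether fragments passed between these genes and Veph1 or Ptx3 was not tested.

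In the lists of relatives and partners, 2 of 55 tested genes were called by limma, both lower in mutants, where 3.48% of all genes were called in either direction. At an unadjusted p under 0.05 there were 1422 lower and 1575 higher of all 15399 genes, beside which the unadjusted counts below are to be read. Of 9 tested genes of NAD synthesis other than Nmnat1, limma called 0, and 0 had an unadjusted p under 0.05, with a median difference of -0.03. Nmnat2, the form of the enzyme in the cytosol and in axons, was 34.8 and 32.9 FPKM in mutants, against 31.5 and 34.0 FPKM in wild types. Nampt, the enzyme before it in the salvage pathway, was 17.1 and 17.9 FPKM in mutants, against 16.7 and 17.5 FPKM in wild types. Nadk, which makes NADP, was 29.7 and 28.9 FPKM in mutants, against 31.5 and 34.5 FPKM in wild types. Nmnat3, the mitochondrial form, was under the filter at 0.129 to 0.352 FPKM. In wild types Nmnat1 and Nmnat2 thus had like levels per length, and in mutants Nmnat1 had the lower of them.

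Of 19 tested genes for mitochondrial iron-sulfur proteins other than Cisd3, limma called 0, with 1 higher and 1 lower at an unadjusted p under 0.05 and a median of -0.07. Cisd1, the outer-membrane relative of Cisd3, was 35.4 and 36.3 FPKM in mutants, against 44.3 and 46.1 FPKM in wild types (log2 difference -0.33, limma adjusted p = 0.0775). Cisd2, the relative in the endoplasmic reticulum, was 30.6 and 27.8 FPKM in mutants, against 29.0 and 27.3 FPKM in wild types. Hspa9, the mitochondrial chaperone, was 73.7 and 73.4 FPKM in mutants, against 77.1 and 82.1 FPKM in wild types. The wild-type level of Cisd3 was above that of both relatives and its mutant level was below. Bola3, picked out after its values were seen, was 4.66 and 4.19 FPKM in mutants, against 32.6 and 5.63 FPKM in wild types. There 1 wild-type library stood apart from the other 3 libraries. The shortest Bola3 transcript has 189 bases, and whether that length has a part in these values was not tested.

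Of the 10 tested Ly-6 genes other than Ly6g6e, 1 was called lower and 0 higher, with 3 lower and 0 higher at an unadjusted p under 0.05 (median -0.25, limma). The called gene was Lypd6, which codes for a membrane-anchored modulator of Wnt receptors, at 3.14 and 3.07 FPKM in mutants, against 12.7 and 10.4 FPKM in wild types (log2 difference -1.73, SE 0.15, limma adjusted p = 0.0156). Both mutants were below both wild types. Lypd6 was not called without wild-type library 1 (limma adjusted p = 0.0892) or library 2 (limma adjusted p = 0.0806).

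Of the 14 tested genes of TGF-beta, Foxo and Tsc proteins, 1 was called lower and 0 higher, with 2 lower and 1 higher at an unadjusted p under 0.05 (median 0.12, limma). It was Tgfbr1, the receptor that VEPH1 binds in human cells, at 35.0 and 38.2 FPKM in mutants, against 53.4 and 54.5 FPKM in wild types (log2 difference -0.55, SE 0.07, limma adjusted p = 0.0338). Both mutants were again below both wild types. Without any 1 of the 4 libraries Tgfbr1 was not called, with limma adjusted p between 0.0705 and 0.179. Of the other pentraxins 3 were tested, and limma called 0 of them, with 0 at an unadjusted p under 0.05. These were the neuronal pentraxin genes Nptx1, Nptx2 and Nptxr. Nptx1 was 2.86 and 2.79 FPKM in mutants, against 3.74 and 3.86 FPKM in wild types (limma adjusted p = 0.290).

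Over the 4 libraries, and by the distance between values of log2(FPKM + 0.5), the genes most like Veph1 were Rbp7 (0.91), Gm16359 (1.28) and Gm29408 (1.32), all at 0 FPKM in both mutants. Those most like Ptx3 were Unc5d (0.50), a netrin receptor gene, Neurod1 (0.54), a factor of newborn glutamatergic neurons, and Lypd6 (0.59). Cldn3 (0.87), a tight junction gene, Gm2004 (0.98) and Cdh12 (1.18), a cadherin gene, were nearest to Ly6g6e. Gm29260 (0.94), Slc17a6 (0.96), the vesicular glutamate transporter gene, and Sema3c (1.02), a semaphorin gene, were nearest to Nmnat1. The nearest to Cisd3 were Gm14440 (5.94), Gm10260 (6.16) and Eomes (6.34), a factor of intermediate progenitors, so no tested gene came as close to Cisd3 as those named for the other 4. These distances use the same library values that chose the genes, and the added 0.5 draws values near 0 together. They are a description, and nothing about shared cell types or regulation is read from them.

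The labelled tissue was checked by Emx1, a factor of the cortex, which was 17.2 and 15.7 FPKM in mutants, against 29.0 and 29.9 in wild types. Mutant library 1 had Xist at 350 FPKM and Ddx3y at 0, against 0.0788 to 0.224 FPKM of Xist in the other 3, so it differs from them in sex. Without it, or without any other 1 library, the differences of Ptx3, Ly6g6e, Cisd3 and Nmnat1 stayed between -8.36 and -2.16, and that of Veph1, which had no value without a wild-type library, between -3.44 and -3.26. Pax6 RNA was 101 and 120 FPKM in mutants and 28.8 and 27.0 in wild types. The small eye allele is a point change that leaves a transcript, so this level does not check the labels. The 10 meningeal markers summed to 34.4 and 20.8 FPKM in mutants and 7.55 and 6.62 FPKM in wild types. In both mutants 7 of 10 were above both wild types and 0 were below. Over all tested genes the groups did not overlap in 51.6%, and 25.8% had both mutants below. Of 7 meningeal markers tested, limma called 0, with a median difference of 1.36. The 15 radial glia markers summed to 1117 and 1105 FPKM in mutants and 1286 and 1119 in wild types, with 5 of 15 above and 5 below both wild types in both mutants. Of 14 radial glia markers tested, limma called Sox2 (adjusted p = 0.00746) and Sox9 (adjusted p = 0.0482) higher and Tnc (adjusted p = 0.0281) lower, with a median difference of 0.03. Endothelial markers summed to 69.2 and 54.1 FPKM in mutants and 47.0 and 46.3 in wild types. Of these, 6 of 8 were above both wild types in both mutants and 0 below, and limma called 0 of 7 tested. Microglial markers summed to 21.3 and 18.1 FPKM in mutants and 20.0 and 24.4 in wild types, with 2 of 8 above and 3 below. Pericyte markers summed to 47.1 and 41.0 in mutants and 37.7 and 34.2 in wild types, with 4 of 6 above and 0 below. Choroid plexus markers summed to 1.21 and 1.03 FPKM in mutants and 1.96 and 1.48 in wild types. Red blood cell markers summed to 1815 and 1748 FPKM in mutants and 1559 and 1728 in wild types. No marker of any list was at 0 in all 4 libraries. The part of these cell types in the values of the 5 genes was not tested.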

How the data were processed

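RNA of whole cortex was sequenced in 2 libraries from Pax6 sey/sey embryos and 2 from wild types at embryonic day 16.5. For each of 22770 genes the deposited table holds 1 FPKM value per library, per the file headers, which also name group FPKM, a fold (ratio of mutant to wild type) and a p-value. Those comparison columns were deposited by the authors with no test or adjustment stated and were not used for any result. Tools in the submitters' processing notes are edgeR, Cufflinks 2.2.1 and TopHat2 2.0.9, with builds GRCm38.p4 and mm10 and no role given. Annotation was GENCODE M21 on GRCm38, which matched 22599 gene identifiers and may differ from the authors' own. Positions are counted from 1.

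Genes with at least 0.5 FPKM in 2 libraries (15399) were transformed to log2(FPKM + 0.5). The genotypes were compared by limma 3.58.1 under R 4.3.3 (mean-variance trend, two-sided, Benjamini-Hochberg over all tested genes, threshold 0.05), and the script was tested on simulated data. With 2 against 2 libraries the precision is low. FPKM holds no fragment totals. The value of 1 fragment was taken as the median of FPKM times kilobases within 25% of its most frequent value, over genes of 1 to 8 kb with a single transcript in a locus of their own, so fragment numbers are estimates that cover no counting error.

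Neighbours were all rows overlapping a locus and the 2 nearest on each side, ties included. From a list of relatives or partners, the text names the called genes or up to 3 of the highest, and Cisd2, Nmnat3 and Bola3 were added outside this rule. For each gene the 3 nearest patterns are given. The genes and lists were chosen with earlier results of these data known. Alternatives were the pseudocount, filter, trend, scaling, replicate block and leaving out each library. Tests of explanations were not made.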

Additional observations from a re-analysis of the deposited data

How the results depend on the processing

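All 53 alternative values of the difference of Veph1, Ptx3, Ly6g6e, Cisd3 and Nmnat1 were below 0. With both mutants below both wild types in each gene, no pseudocount or left-out library could change that sign. The filter, trend and replicate block left the difference itself the same. The sign is therefore no check of the differences. The pseudocount moved Veph1 to -4.86 (0.1) and -2.59 (1), and leaving out a library moved Cisd3 to between -8.36 and -7.46. Without a wild-type library, Veph1 and Rbp7 failed the filter and had no value. The number of genes called by limma depended on the settings. Against 225 lower and 311 higher, limma called 21 lower and 40 higher with no filter, and 20 lower and 34 higher with no trend. Leaving out 1 library gave 165 lower and 180 higher without mutant 1, 69 and 76 without mutant 2, 14 and 47 without wild type 1, and 13 and 34 without wild type 2, with the lone library of a group assumed to vary like the others. Rbp7 was at 0 in both mutants, so leaving out either mutant kept its difference at -4.08 and is no check of it. Of the neighbours, 1 (Rbp7) was called lower in every setting that tested it. Without wild type 1 or wild type 2 limma called 0 (1 and 0 at an unadjusted p under 0.05). Of the listed relatives limma called 2 lower, but 0 with no filter (8 at an unadjusted p under 0.05), 0 with no trend (9 unadjusted), and 0 to 1 without a library (4 to 7 unadjusted), the one called without wild-type library 2 being neither Lypd6 nor Tgfbr1. With the longest transcript as length or plain FPKM, the mutant share of the Veph1 and Ptx3 locus sum was 0.0901 or 0.138. Replicate numbers do not pair the libraries by any label (correlation of deviations 0.05 across genes), and with the number as a replicate block 153 genes were called lower and 221 higher, with no change in the calls of neighbours or relatives. Over all annotated exon bases, the mutant values of Veph1 and Ly6g6e stand for the fewest fragments of the 5 genes, about 3.71 to 12.2. For Cisd3 the number is not known, and over its shortest transcript it came to about 5.17 and 3.52 in mutants.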
